A study of Citrus sinensis with 36 samples.

Results

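Cs8g01840 and Cs8g01850 are neighbouring endochitinase genes on chromosome 8 of sweet orange (Citrus sinensis), and they are 2 of the 29654 genes in the deposited expression table. They were chosen because their values were much higher in Valencia orange (VO) than in common sweet orange (CO), and because the VO varieties differed among themselves. The difference between VO and CO and the spread between the VO varieties are therefore described here with no test. The deposited descriptions match Cs8g01840 to endochitinase CH25 of Brassica napus and Cs8g01850 to endochitinase 1 of Theobroma cacao, and the gene models are 1873 and 1650 bases long. The deposited functional terms give chitinase activity for both genes and chitin binding for Cs8g01850 alone. In the RefSeq gene order of sweet orange the matching loci, LOC102627878 and LOC102628172, lie next to each other on chromosome 8.

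Fruit of all groups was harvested at 220 days after flowering (DAF) and dissected by hand into peel and pulp. The CO group was made up of Jincheng, Taoye and Xianfeng orange, and the VO group, which the sample records write as SO, of Cutter, Delta and Rohde Red Valencia orange. Each variety gave 3 libraries per tissue, 36 in all, and the sources do not say the same number of trees per replicate. VO ripens months later than CO, so at this common date the COs were mature and the VOs were still coloring, and variety group and ripening stage cannot be told apart. The study's records also give lower RNA integrity for VO peel than for CO peel, and the part of RNA integrity in these values was not tested.

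Endochitinases cut chitin, the polymer of fungal cell walls and insect cuticles, at internal bonds. Plants make no chitin themselves, and the fragments released from a fungus are recognised by receptors with LysM domains. Many plant chitinases belong to the pathogenesis-related (PR) proteins, together with beta-1,3-glucanases and thaumatin-like proteins, and rise in plants after infection or wounding. Others accumulate in fruits and seeds as they develop, and chitinase-like proteins of Arabidopsis take part in building the cell wall.

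Levels are given as FPKM, fragments divided by the length of the gene and by library size, which allows levels of different genes to be compared. The libraries held 14.8 to 18.8 M mapped fragments with ranges that overlapped between the groups, and every deposited value came out as a whole number of fragments. The Poisson intervals below cover counting error only, not variation between libraries or varieties. Green tissue markers, the chlorophyll-binding and photosystem genes, summed to 110.2 to 231.9 FPKM in CO peel libraries and 278.2 to 525.2 FPKM in VO peel libraries, and 22 of the 34 measured were called higher in VO peel. In pulp the same sum was 123.7 to 135.2 FPKM in CO and 242.5 to 286.9 FPKM in VO, with 23 of 33 called higher. The peel count was 10 to 23 with a variety left out, lowest without Rohde Red. Of all genes measured, limma called 13.2% higher and 7.15% lower in VO peel at an adjusted p under 0.05. In VO pulp it called 12% higher and 7.48% lower. Vascular markers such as laccases and secondary wall cellulose synthases were called higher for 7 of 15 genes in peel and 4 of 12 in pulp, and lower for 0 (at an unadjusted p under 0.05 in limma, 0 in peel and 2 in pulp). With a variety left out, 3 to 10 were higher in peel and 0 to 4 in pulp, fewest without Rohde Red in both. Their sums were 28.91 to 47.35 FPKM in CO peel against 47.29 to 57.05 FPKM in VO peel, and 15.78 to 29.2 against 21.88 to 39.48 FPKM in pulp. The part of tissue makeup in the endochitinase values was not tested.

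In CO peel, Cs8g01840 was barely expressed. Its FPKM was 0.374, 0.777 and 0.499 in the 3 Jincheng libraries, 0.332, 0.132 and 0.483 in Taoye and 0.323, 0.344 and 0.230 in Xianfeng, from 4 to 24 fragments per library. Taoye overlapped both other CO varieties, all Jincheng libraries were above all Xianfeng libraries, and the lowest library was a Taoye library with 4 fragments.

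The VO peel libraries were all far above these values for Cs8g01840. The FPKM values were 10.75, 8.09 and 8.74 in Cutter, 42.8, 44.7 and 50.2 in Delta and 7.43, 7.08 and 7.01 in Rohde Red. Delta stood alone at the top, and the lowest Cutter library was above the highest Rohde Red library. The mean over varieties was 0.388 ± 0.140 FPKM in CO and 20.8 ± 21.8 FPKM in VO (SD, n = 3 varieties each), a ratio of 53.5. The lowest VO variety was still 13.1 times the highest CO variety.

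In pulp, Cs8g01840 was near the limit of detection in CO and clearly present in VO. The CO pulp libraries held 1 to 6 fragments each and 30 fragments in all, at 0.0328 to 0.216 FPKM with a median of 0.0977. Cutter pulp had 1.27, 0.975 and 1.06 FPKM, Delta pulp 8.53, 11.15 and 9.02 FPKM and Rohde Red pulp 3.16, 3.09 and 2.86 FPKM. The order of the VO varieties in pulp was Delta, Rohde Red and Cutter, so Rohde Red and Cutter had the reverse of their order in peel. The VO mean of 4.57 ± 4.44 FPKM was 42.2 times the CO mean of 0.108 ± 0.0277 FPKM (SD, n = 3 varieties), and the counting error of the CO fragments alone allows 29.5 to 62.5 (95% exact Poisson interval).

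Cs8g01850 was the more abundant gene of the pair. In CO peel its FPKM was 3.90, 4.34 and 4.15 in Jincheng, 2.78, 2.70 and 2.62 in Taoye and 2.53, 2.42 and 2.09 in Xianfeng, from 56 to 118 fragments per library. In VO peel it was 28.9, 27.7 and 29.4 in Cutter, 121.4, 122.2 and 138.3 in Delta and 18.3, 14.9 and 17.2 in Rohde Red. In peel the order of the variety means was Delta, Cutter, Rohde Red, Jincheng, Taoye and Xianfeng. The mean was 3.06 ± 0.944 FPKM in CO and 57.6 ± 60.7 FPKM in VO (SD, n = 3 varieties), a ratio of 18.8. The lowest VO variety was 4.07 times the highest CO variety.

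Transcripts of Cs8g01850 almost vanished from CO pulp but not from VO pulp. The CO pulp libraries ranged from 0.0409 to 0.264 FPKM with a median of 0.145, and held 1 to 7 fragments each and 38 in all. Cutter pulp had 7.52, 5.86 and 8.46 FPKM, Delta pulp 29.7, 33.6 and 27.9 FPKM and Rohde Red pulp 18.2, 17.6 and 17.2 FPKM. As with Cs8g01840, the order of the VO varieties in pulp was Delta, Rohde Red and Cutter. The VO mean of 18.5 ± 11.6 FPKM was 119.8 times the CO mean of 0.154 ± 0.0389 FPKM (SD, n = 3 varieties), with 87.3 to 169.3 allowed by the counting error of the CO fragments (95% exact Poisson interval).

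**Figure D1:**
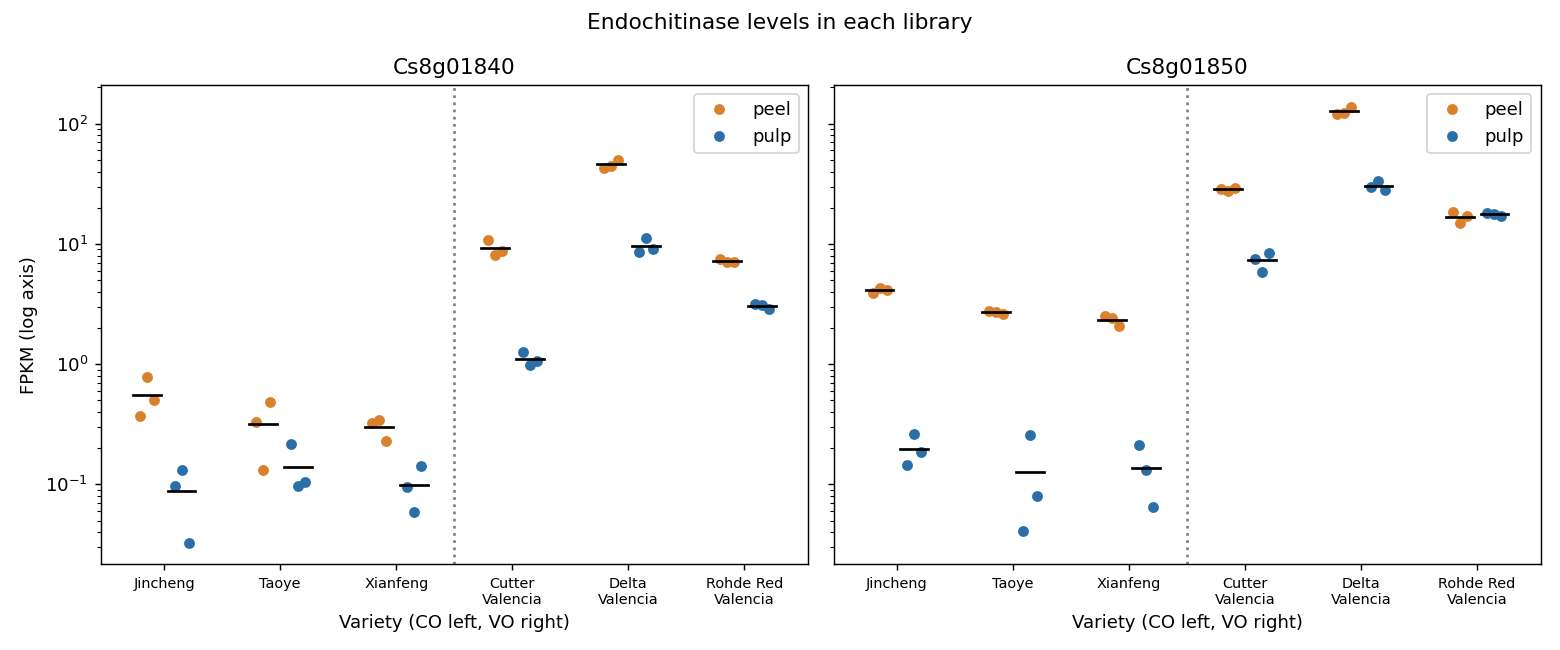
FPKM (log axis) of Cs8g01840 (left) and Cs8g01850 (right) in each library, by variety, with peel in orange, pulp in blue and the mean of each variety and tissue as a black line. All VO libraries are above all CO libraries of the same tissue, and Delta Valencia is the highest variety in both panels and both tissues.

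For both genes and in both tissues, every VO library was above every CO library. Such complete separation with VO above was found for 11% of the 18375 genes kept in peel and 10.8% of the 17222 genes kept in pulp, genes being kept when any variety averaged at least 0.3 FPKM in the tissue. In the limma comparison of variety means, 13.2% of genes in peel and 12% in pulp were called higher in VO, and 7.15% and 7.48% lower, at an adjusted p under 0.05 (Benjamini-Hochberg). The endochitinase pair was chosen on this contrast, so these shares are given as background alone. On the log2(FPKM + 0.1) scale the VO minus CO difference was 4.99 in peel and 4.02 in pulp for Cs8g01840, and 3.69 in peel and 6.03 in pulp for Cs8g01850.

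Ordered by level, the 12 variety and tissue means of Cs8g01840 ran from Delta peel through Delta pulp, Cutter peel, Rohde Red peel, Rohde Red pulp and Cutter pulp to the 3 CO peels and the 3 CO pulps. Among neighbours in this order, the libraries of Delta pulp and Cutter peel overlapped, as did those of Jincheng and Taoye peel, of Taoye and Xianfeng peel, and of the CO pulps. The order for Cs8g01850 was Delta peel, Delta pulp, Cutter peel, Rohde Red pulp, Rohde Red peel and Cutter pulp, followed again by the CO peels and the CO pulps. Here Delta pulp overlapped Cutter peel, Rohde Red pulp overlapped Rohde Red peel, and the CO pulps overlapped each other.

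The spread between Valencia varieties was large for both genes. Delta was 4.99 times Cutter and 6.39 times Rohde Red for Cs8g01840 in peel, and 4.45 and 7.58 times for Cs8g01850. In pulp the corresponding ratios were 8.69 and 3.15 for Cs8g01840, and 4.18 and 1.72 for Cs8g01850. Libraries of 1 VO variety and tissue were close to each other in comparison, with a coefficient of variation of 2.95% to 18.1% (n = 3 libraries) over both genes.

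Among all genes kept, few had VO varieties so far apart. The range over the 3 VO varieties on the log2(FPKM + 0.1) scale was 2.66 for Cs8g01840 and 2.92 for Cs8g01850 in peel, where the median gene had 0.27. Ranges as large were found for 53 and 37 of the 18375 genes, or 0.288% and 0.201%. In pulp the ranges were 3.01 and 2.06 against a median of 0.22, and 0.238% and 1.27% of genes reached them. The CO varieties were closer, with ranges of 0.70 and 0.79 in peel, which 16.99% and 14% of genes reached, and of 0.36 and 0.50 in pulp at counts of 1 to 7 fragments. These places among all genes describe the choice of the pair and were not tested.

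**Figure D2:**
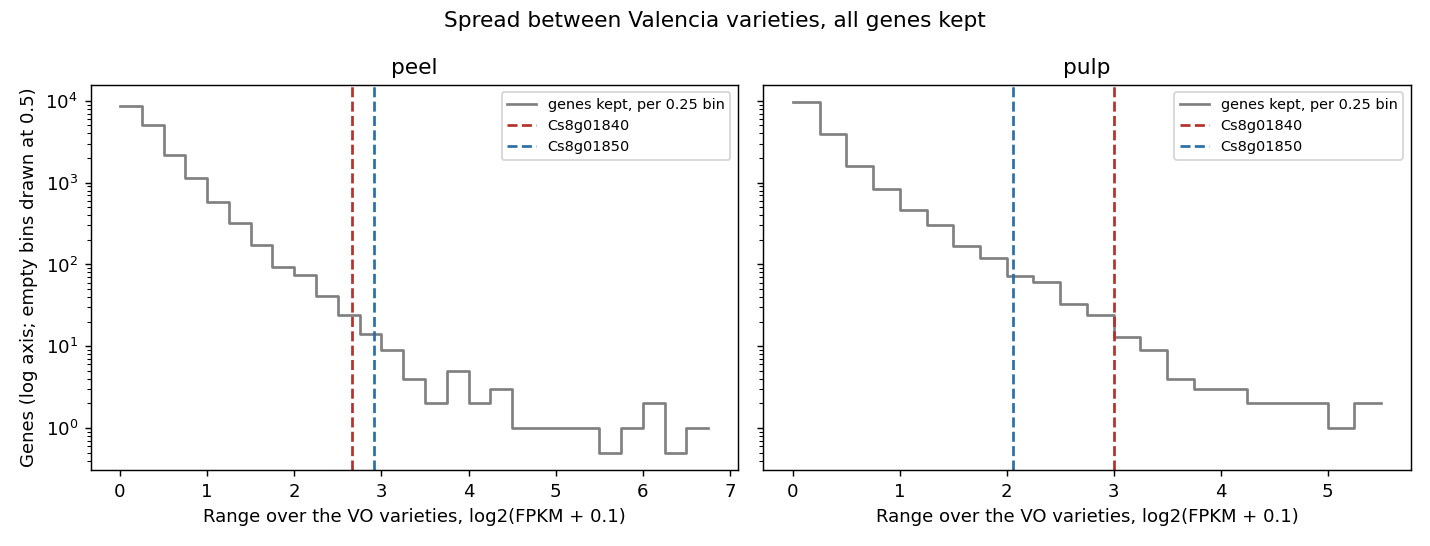
Number of genes kept (log axis) by the range of the 3 VO variety means on the log2(FPKM + 0.1) scale, in peel (left) and pulp (right), with the endochitinase genes as dashed lines. Both genes lie in the upper tail, at 2.66 and 2.92 in peel and 3.01 and 2.06 in pulp.

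Delta was the highest VO variety for both genes in both tissues. All Delta libraries were above all Cutter and Rohde Red libraries for both genes in both tissues, which held for 14.9% of genes in peel and 7.01% in pulp. The lead of Delta over the next VO variety was 2.31 and 2.15 on the log2 scale in peel for Cs8g01840 and Cs8g01850, and 5 and 6 genes, the genes themselves included, had a lead as large. In pulp the lead was 1.62 and 0.78, reached by 24 and 190 genes. Green tissue markers had another order, with sums over the variety means of 281.4 FPKM in Delta peel, 521.8 FPKM in Cutter peel and 465.1 FPKM in Rohde Red peel. Cuticle and epidermis marker sums were highest in Delta peel, as the pair was, at 1020 FPKM against 756.5 FPKM in Cutter and 785.1 FPKM in Rohde Red, and in pulp they were 492.0 FPKM in Delta, 361.2 FPKM in Cutter and 506.9 FPKM in Rohde Red. Vascular marker sums were 55.4 FPKM in Delta, 49.3 FPKM in Cutter and 48.4 FPKM in Rohde Red peel. The part of these tissues in the lead of Delta was not tested.

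The contrast of peel and pulp was not used to choose the genes and was tested across the 6 varieties, each giving its own pulp minus peel difference (limma, trended moderation, Benjamini-Hochberg adjustment over 18838 genes). Both endochitinase genes were called lower in pulp than in peel over the 6 varieties. Of all genes, 50.2% were called lower in pulp and 22.6% higher, so a call in this direction is common. With size factors from the median of ratios in place of FPKM alone, 7187 genes were lower and 6110 higher, against 9465 and 4266, and the median of all genes moved from -0.23 to -0.05. Both genes kept their call under that scaling.

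Cs8g01840 was lower in pulp in each of the 6 varieties. The mean pulp minus peel difference was -1.66 (SE 0.25, n = 6 varieties, limma adjusted p = 0.0012), with differences from -2.95 in Cutter to -0.73 in Taoye, where a peel library of 4 fragments overlapped the pulp libraries. In FPKM, peel was 8.35 times pulp in Cutter, 4.796 times in Delta and 2.36 times in Rohde Red. Within VO the difference was -2.14 (SE 0.35, limma adjusted p = 0.0025), where 44.4% of genes were called lower in pulp. Within CO it was -1.18 (SE 0.35, limma adjusted p = 0.028), where 40.7% were called lower, and there it rests on 106 fragments in peel and 30 in pulp. This CO call was lost with a pseudocount of 1 FPKM (-0.32, limma adjusted p = 0.25) and without Jincheng (-0.87, limma adjusted p = 0.13) or Xianfeng (-1.26, limma adjusted p = 0.080).

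Cs8g01850 was lower in pulp in 5 of the 6 varieties, Rohde Red being the exception. The mean difference was -2.49 (SE 0.30, n = 6 varieties, limma adjusted p = 4.7e-04). Within CO it was -3.67 (SE 0.42, limma adjusted p = 8.7e-04), with all 3 varieties between -3.84 and -3.41. Peel was 20.8 times pulp in Jincheng, 21.4 times in Taoye and 17.1 times in Xianfeng, from 10 to 16 fragments of pulp per variety.

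The VO varieties did not share 1 tissue pattern for Cs8g01850. Peel was 3.93 times pulp in Cutter and 4.19 times in Delta, with no overlap of libraries. In Rohde Red the peel libraries (14.9 to 18.3 FPKM) and the pulp libraries (17.2 to 18.2 FPKM) overlapped, and the difference of the means was 0.08 on the log2 scale. The VO mean of -1.32 (SE 0.42) passed the threshold (limma adjusted p = 0.033), but not without Delta (-0.95, limma adjusted p = 0.16), without Cutter (-0.99, limma adjusted p = 0.15) or with median-of-ratios size factors (-1.13, limma adjusted p = 0.057). Without Rohde Red it was -2.02 (limma adjusted p = 0.0033). Whether the tissue difference itself differed between VO and CO was not tested, because the members were chosen on the variety groups.

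**Figure D3:**
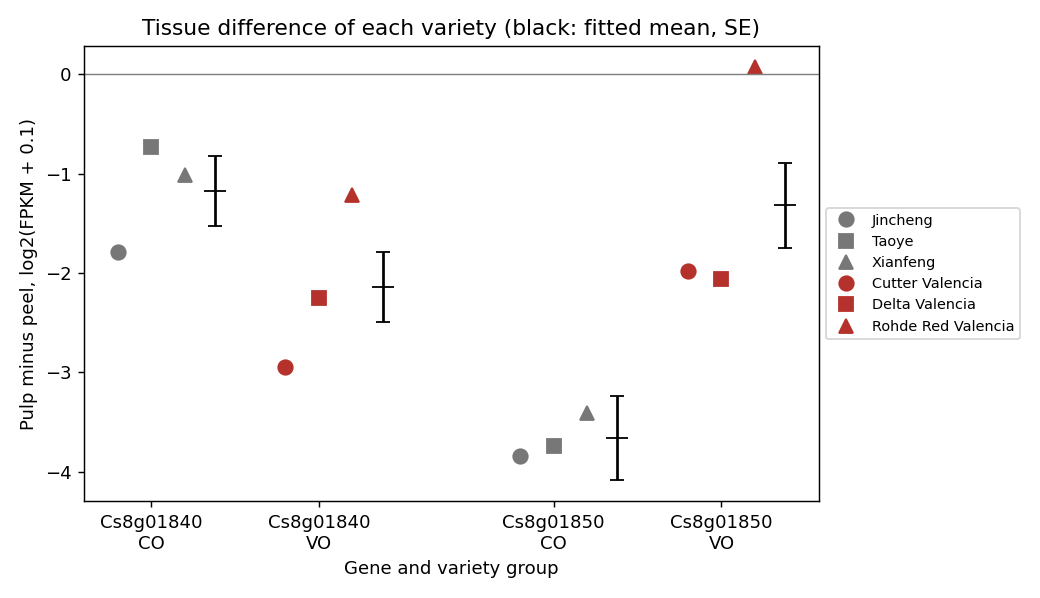
Pulp minus peel difference on the log2(FPKM + 0.1) scale for each variety (CO grey, VO red), with the fitted group mean and its SE in black (n = 3 varieties). All points lie below 0 except Cs8g01850 in Rohde Red Valencia, at 0.08.

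The pairs of CO varieties were a second contrast that the choice had not used. In peel, Cs8g01850 was higher in Jincheng than in Taoye by 0.59 (SE 0.08, limma adjusted p = 1.3e-05) and higher than in Xianfeng by 0.79 (SE 0.08, limma adjusted p = 1.7e-06) on the log2 scale. In these comparisons 18.6% and 8.29% of all genes were called higher in Jincheng. Taoye and Xianfeng differed by 0.20, with a 95% interval of 0.03 to 0.36 and a limma adjusted p of 0.061, in a comparison where 31.9% of genes were called in either direction. For each gene the SE was the same in every pair, so it pooled library scatter over varieties outside the pair. That scatter may be partly technical. For Cs8g01850 the SE of 0.08 is smaller than counting error alone would give for 329 Jincheng, 220 Taoye and 187 Xianfeng fragments. These p-values and the interval are therefore too sharp, and the order of Taoye and Xianfeng is not settled.

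Cs8g01840 was too low in CO peel to order the varieties firmly. Jincheng was above Taoye by 0.70 (SE 0.26, limma adjusted p = 0.048), a call that was lost without the second Jincheng library (0.46, limma adjusted p = 0.22), without the second Taoye library (0.33, limma adjusted p = 0.28) and under several other settings. Leaving out the third Jincheng library (0.73, limma adjusted p = 0.076) or the first Taoye library (0.77, limma adjusted p = 0.061) also ended it. Jincheng minus Xianfeng was 0.67 with a 95% interval of 0.12 to 1.22 (limma adjusted p = 0.10), and Taoye minus Xianfeng was -0.03 with an interval of -0.58 to 0.52 (limma adjusted p = 0.95). In pulp the CO varieties overlapped for both genes at 1 to 7 fragments per library, and both genes were kept there only through their VO levels, so nothing is read from the CO pairs in pulp.

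Cs8g01850 had the higher FPKM of the pair in 33 of 36 libraries. The exceptions were 2 Taoye and 1 Xianfeng pulp libraries, all with 1 to 6 fragments of each gene. In VO peel the level of Cs8g01840 was 32.1% of that of Cs8g01850 in Cutter, 36.04% in Delta and 42.7% in Rohde Red, and in CO peel it was 13.3% in Jincheng, 11.7% in Taoye and 12.7% in Xianfeng. In VO pulp the percentages were 15.1% in Cutter, 31.5% in Delta and 17.2% in Rohde Red, so Delta held nearly the same ratio in both tissues while the other VO varieties did not. Over single libraries the percentage was 29.2% to 47.6% in VO peel and 4.89% to 18.4% in CO peel. The CO peel libraries held 4 to 24 fragments of Cs8g01840. This sets VO against CO, the contrast the pair was chosen on, and was not tested.

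Over the 6 varieties, no single direction of change in the ratio of the pair between the tissues was found. The pulp minus peel difference of the log2 ratio was 0.84 ± 1.87 (SD, n = 6 varieties, exact two-sided sign-flip permutation test, p = 0.34, the smallest possible being 0.031). It was above 0 in the 3 CO varieties, whose pulp values rest on 8 to 16 fragments per gene and variety, and below 0 in the 3 VO varieties at -0.97 in Cutter, -0.19 in Delta and -1.29 in Rohde Red. Within a group of 3 varieties the exact permutation test cannot go below p = 0.25.

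**Figure D4:**
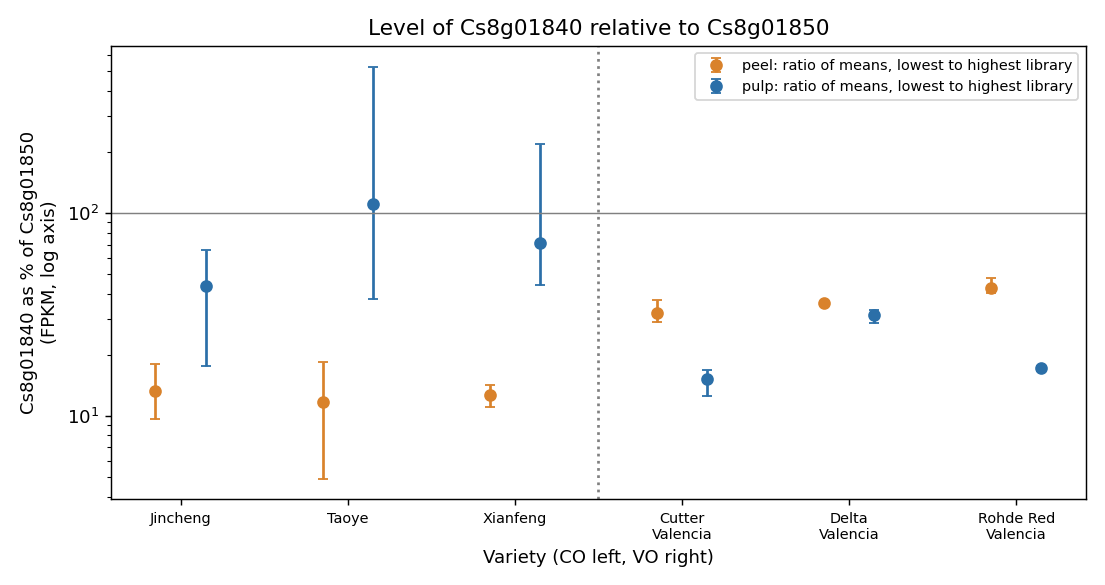
Cs8g01840 as a percentage of Cs8g01850 (FPKM, log axis) by variety in peel (orange) and pulp (blue); points are ratios of variety means and bars run from the lowest to the highest of 3 libraries. VO peel lies at 32.1% to 42.7%, CO peel at 11.7% to 13.3%, and the CO pulp bars are wide because they rest on few fragments.

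Across the 12 variety and tissue means, the genes followed each other with a Pearson correlation of 0.94 on the log2(FPKM + 0.1) scale. It was 0.99 over the 9 VO peel libraries and 0.97 over the 9 VO pulp libraries. In CO it was 0.66 over the 9 peel libraries and -0.50 over the 9 pulp libraries, where counts were near 0. Both genes were chosen for the difference between VO and CO and for the spread between VO varieties. That choice by itself raises the correlation over the 12 means and over the VO libraries. The points also share varieties and libraries, so these values are descriptions. Of the 16326 other genes with a variety mean of at least 1 FPKM, Cs8g01850 was number 14 in likeness to Cs8g01840, and Cs8g01840 was number 33 in likeness to Cs8g01850.

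The 5 genes most like Cs8g01840 over the 12 means were matched to a chloroplast D-amino-acid transaminase (Cs1g08020, r = 0.97), a chloroplast ribosomal protein L10 (Cs7g27880, 0.97), a DETOXIFICATION transporter (Cs6g09880, 0.96), a receptor-like protein kinase (Cs9g04830, 0.96) and a prefoldin subunit (Cs7g13640, 0.96). Their spans differed widely. Cs1g08020 had variety means of 1.81 to 2.39 FPKM in CO peel and 4.11 to 8.18 FPKM in VO peel. Cs9g04830 had 0.153 to 0.346 FPKM in CO peel against 3.09 to 4.33 FPKM in VO peel, and 0.0136 to 0.0456 against 0.431 to 1.29 FPKM in pulp. Most like Cs8g01850 were the unannotated Cs8g21000 (r = 0.97), a plasmodesmata callose-binding protein (Cs5g11770, 0.97), a kinesin (Cs4g12270, 0.97), a GATA transcription factor (Cs5g26470, 0.97) and a gibberellin-regulated protein (Cs6g20220, 0.97). Cs6g20220 had 8.82, 16.1 and 12.5 FPKM in Cutter, Delta and Rohde Red peel, and 3.00, 11.3 and 6.34 FPKM in their pulp.

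Over the 9 VO peel libraries alone, the genes most like Cs8g01840 were matched to a 26S proteasome subunit (Cs3g25280), the DNA-binding protein WHY1 (Cs7g04270) and annexin D2 (Cs1g01540), with r of 0.994, 0.994 and 0.994. For Cs8g01850 they were matched to annexin D1 (Cs3g18360), a translocator protein (Cs5g32930) and a chaperonin subunit for RuBisCO (Cs8g16040), with r of 0.997, 0.997 and 0.996. In Cs3g18360, as in the endochitinase, Delta was highest and Rohde Red lowest, but the means of Cutter, Delta and Rohde Red peel were 158.1, 195.5 and 145.4 FPKM, a much narrower span.

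Other genes of the same stretch of chromosome 8, from Cs8g01800 to Cs8g01890, did not share the pattern as a block. Cs8g01810, also matched to an endochitinase, reached a mean of only 0.0261 FPKM in VO peel and was not kept, nor were Cs8g01820, Cs8g01830 and Cs8g01890, and Cs8g01820 and Cs8g01890 were at 0 in every library. Cs8g01855, which has no annotation and lies just beside Cs8g01850 in ID order, had 7.19 ± 0.796 FPKM in CO peel and 7.49 ± 0.173 FPKM in VO peel, and 7.17 ± 1.15 and 7.77 ± 0.425 FPKM in pulp (SD, n = 3 varieties), and was not called. Cs8g01800, matched to XRI1, a protein of DNA repair in Arabidopsis, was not called in either tissue either.

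The next genes along differed between the groups in 1 tissue at most. Cs8g01860, matched to the NAC transcription factor NAC035, was higher in VO peel, at 12.9 ± 5.22 FPKM against 4.19 ± 0.0988 FPKM in CO (log2 difference 1.51, SE 0.29, n = 3 varieties, limma adjusted p = 0.016), and was not kept in pulp. Cs8g01880, matched to expansin-like A1, was higher in VO pulp, at 44.3 ± 20.6 against 9.23 ± 3.67 FPKM (log2 difference 2.21, SE 0.41, limma adjusted p = 0.014), and was not called in peel. Cs8g01870, matched to LOG5, an enzyme of cytokinin activation, was seen mainly in Cutter peel, at 2.83 ± 2.27 FPKM (SD, n = 3 libraries), and was not called.

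Within the chitinase family, 27 genes carry the word chitinase in the deposited description, and 25 of them are not the pair. In VO the pair ranked high, Cs8g01850 being number 2 and Cs8g01840 number 4 of 27 by mean FPKM in peel, and number 3 and number 5 in pulp. In CO peel they were number 7 and number 15. Together they made up 19.8% ± 16.1 of the summed family FPKM in VO peel (SD, n = 3 varieties), from 8.72% to 38.3%, and 1.36% ± 0.561 in CO peel. In pulp the shares were 4.32% ± 2.86 in VO and 0.0720% ± 0.0274 in CO.

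The rest of the family did not move together. Of the 17 other genes measured in peel, 1 was called higher in VO, 0 lower and 16 not called, with a median log2 difference of -0.18 against 0.05 over all genes. At an unadjusted p under 0.05, limma gave 4 higher and 3 lower in peel. Of the 12 measured in pulp, 4 were higher, 1 was lower and 7 were not called, with a median of 0.07 against 0.02. The matching shares over the whole set of genes kept were 13.2% up and 7.15% down for peel, and 12% and 7.48% for pulp. With the filter at 1 FPKM, 1 of 12 family genes was higher and 0 lower in peel, and 2 of 8 higher and 1 lower in pulp. The summed FPKM of the 25 genes was 225.9 to 283.7 in CO peel libraries and 247.3 to 284.8 in VO peel libraries, ranges that overlap.

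Cs9g02520, matched to chitinase-like protein 2, was the family member called higher in VO peel. It had 5.07 ± 1.49 FPKM in VO and 1.09 ± 0.913 FPKM in CO (log2 difference 2.44, SE 0.62, n = 3 varieties, limma adjusted p = 0.037), and its pulp difference of 2.54 had a limma adjusted p of 0.053. The peel call was lost without Xianfeng, Cutter or Delta, when the count of family genes higher in VO was 0. Of all genes, 4.88% had a VO minus CO difference that itself differed between the tissues (limma interaction), as had 3 of the 18 other family genes tested. In pulp the genes called higher were Cs5g24680, Cs7g18230, orange1.1t05124 and Cs5g21890. Cs5g24680, matched to chitinase-like protein 1, a protein of cell wall formation in Arabidopsis, had 283.5 ± 42.1 FPKM in VO pulp and 129.6 ± 20.6 FPKM in CO pulp (log2 difference 1.13, SE 0.16, limma adjusted p = 0.0059).

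The other pulp calls were of low genes. With Delta or Rohde Red left out, 2 family genes were called higher in pulp in place of 4. Cs7g18230, matched to a chitinase of animal type, had 1.95 ± 0.459 FPKM in VO against 0.277 ± 0.179 FPKM in CO (limma adjusted p = 0.0068). orange1.1t05124, matched like Cs8g01850 to endochitinase 1 of cacao, had 0.301 ± 0.0998 FPKM against 0.0142 ± 0.0140 FPKM (limma adjusted p = 0.015). Its highest VO variety in peel was at 1.98 FPKM and its lowest at 0.159 FPKM, and the peel difference of 2.20 had a limma adjusted p of 0.077. Cs5g21890, an EP3-type endochitinase named here after its values were seen, had 0.342 ± 0.0885 FPKM against 0.0244 ± 0.0288 FPKM (limma adjusted p = 0.014).

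Orange1.1t03119, matched to endochitinase EP3, was the 1 family gene lower in VO pulp, at 0.864 ± 0.391 FPKM against 6.54 ± 3.93 FPKM in CO (log2 difference -2.72, SE 0.48, n = 3 varieties, limma adjusted p = 0.012). The most abundant family gene of CO pulp, Cs1g26330, a basic endochitinase, had 212.1 ± 80.3 FPKM in VO and 203.5 ± 87.6 FPKM in CO and was not called. In VO pulp the mean of Cs5g24680 was above it. Cs9g14710, an acidic endochitinase, had 2.81 ± 0.814 FPKM in VO pulp and 45.5 ± 63.8 FPKM in CO pulp, where a single variety reached 118.7 FPKM and the lowest was at 2.29 FPKM, and was not called either. Orange1.1t00476, a chitinase domain protein, was level at 6.02 to 6.56 FPKM in the group means of both tissues. Cs5g21860, Cs5g21870, Cs5g21900 and orange1.1t03118 were not called in peel and had limma adjusted p-values of 0.055 to 0.50 there.

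**Figure D5:**
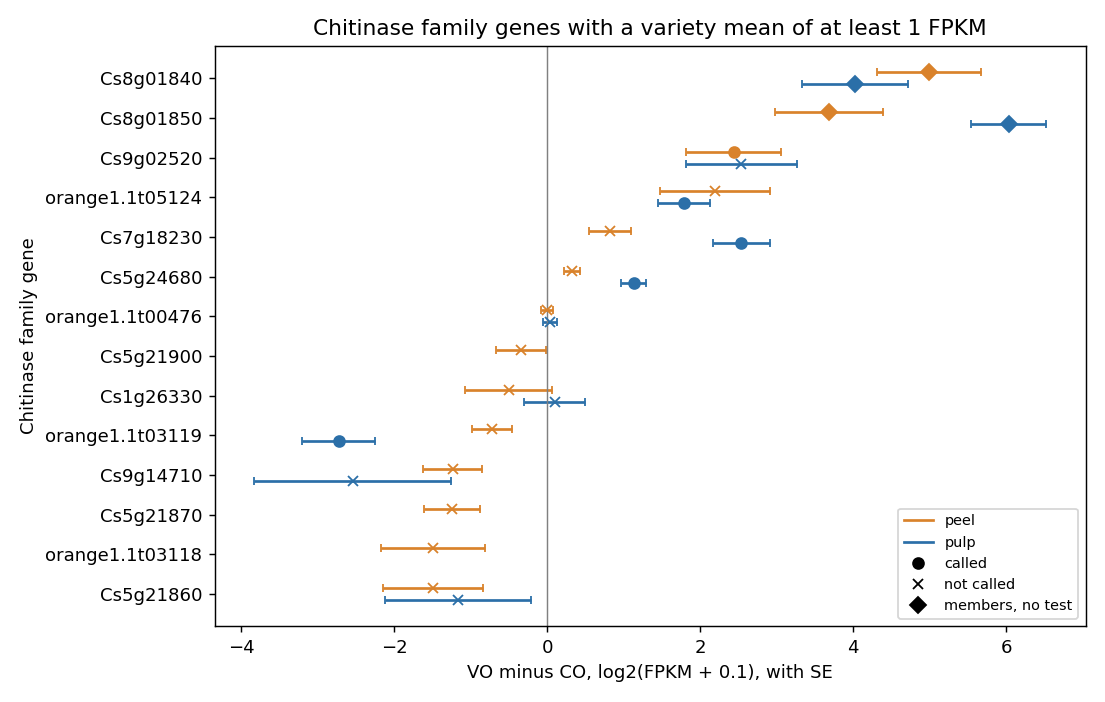
VO minus CO difference on the log2(FPKM + 0.1) scale with its SE (n = 3 varieties per group) for chitinase family genes with a variety mean of at least 1 FPKM, in peel (orange) and pulp (blue). The endochitinase pair (diamonds, not tested) lies at 3.69 to 6.03, and the other genes lie on both sides of 0, with those called drawn as filled circles.

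Other defence gene groups also held genes in both directions, against 13.2% of all genes called higher and 7.15% lower in VO peel and 12% and 7.48% in VO pulp. Of the beta-1,3-glucanases, which cut the glucan of fungal walls and plant callose, VO peel had 9 of 32 higher and 3 lower, and VO pulp 6 of 26 higher and 5 lower. With a variety left out the higher genes numbered 3 to 7 in peel (3 without Jincheng) and 0 to 6 in pulp (0 without Delta or without Rohde Red), and the lower genes 1 to 2 in peel and 2 to 6 in pulp. The most abundant of those called were Cs8g06470 in peel (15.9 ± 1.65 FPKM in VO, 9.85 ± 0.432 in CO, limma adjusted p = 0.0057) and Cs6g02180 in pulp (28.0 ± 0.242 against 17.4 ± 3.79 FPKM, limma adjusted p = 0.021) among the higher. Among the lower were Cs4g18080 in peel (32.9 ± 2.47 against 43.6 ± 5.50 FPKM, limma adjusted p = 0.046) and Cs8g14950 in pulp (25.4 ± 2.99 against 61.9 ± 22.6 FPKM, limma adjusted p = 0.017).

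Thaumatin-like proteins were higher in VO for 4 of 15 genes and lower for 2 in peel, and 2 of 13 were higher and 1 lower in pulp, shares close to those of all genes there. With a variety left out the higher genes numbered 1 to 5 in peel (1 without Xianfeng or without Delta) and 0 to 2 in pulp (0 without Delta or without Rohde Red). Cs5g10550 was lower in both tissues, at 4.27 ± 2.51 FPKM in VO peel against 39.3 ± 7.41 in CO (limma adjusted p = 0.0045) and 13.3 ± 0.376 against 30.0 ± 7.97 FPKM in pulp (limma adjusted p = 0.011). Cs1g25540, which the list of named PR proteins also holds, was higher in VO peel at 15.9 ± 3.50 against 8.38 ± 1.26 FPKM (limma adjusted p = 0.020), and Cs8g02880 in VO pulp at 13.1 ± 0.734 against 8.93 ± 0.965 FPKM (limma adjusted p = 0.012).

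Named PR proteins were called higher for 1 and lower for 4 of 16 genes in peel, and 1 each way of 13 in pulp. The higher gene was lost in peel without Jincheng, Xianfeng or Delta and in pulp without Taoye, Xianfeng, Delta or Rohde Red. The lower gene in pulp was lost without Jincheng, and the lower genes in peel numbered 1 without Xianfeng and 2 without Cutter or Rohde Red. Cs9g03660, matched to the major allergen Pru ar 1, was lower in VO in both tissues, at 6.36 ± 0.494 against 15.3 ± 4.43 FPKM in peel (limma adjusted p = 0.0090). Cs4g02980, matched to PR-1, was higher in VO pulp, but only at 0.448 ± 0.278 FPKM against 0.0102 ± 0.0176 FPKM (limma adjusted p = 0.035).

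Among genes of chitin perception, the LysM receptors and their kin, VO peel had 3 of 11 higher and 1 lower, and VO pulp 2 of 10 higher and 1 lower. In peel 1 gene was higher without Xianfeng. Cs2g02680, a LysM receptor-like kinase, was lower in VO in both tissues, with 1.58 ± 0.478 against 4.33 ± 0.350 FPKM in peel (limma adjusted p = 0.0065) and 1.60 ± 0.170 against 3.05 ± 0.164 FPKM in pulp (limma adjusted p = 0.0044). Cs9g08050, matched to the receptor-like kinase NFP, was higher in VO peel, at 34.6 ± 5.15 against 24.0 ± 1.102 FPKM (limma adjusted p = 0.023). Cs1g15820, matched to a LysM receptor-like kinase, was higher in VO pulp, at 4.05 ± 0.411 against 2.45 ± 0.176 FPKM (limma adjusted p = 0.0082). The medians of the 4 defence lists lay between -0.43 and 0.51 in peel and between -0.40 and 0.17 in pulp.

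Cuticle and epidermis markers differed in both directions as well, against 13.2% of all genes higher and 7.15% lower in VO peel. In VO pulp these shares were 12% and 7.48%. In peel 9 of 35 were higher and 6 lower in VO, with sums of 722.6 to 1079 FPKM in VO libraries and 895.3 to 1201 FPKM in CO libraries. Cs6g09960, a lipid-transfer protein, was the most abundant gene called lower in VO peel. It had 19.6 ± 27.7 FPKM in VO and 235.2 ± 153.4 FPKM in CO (limma adjusted p = 0.038). In peel, Cs6g09960 alone made up a large part of the difference between the sums. In pulp 13 of 30 were higher and 4 lower, and the sums of 351.2 to 524.3 FPKM in VO were above the 139.6 to 192.0 FPKM in CO, so in pulp this list and the endochitinase pair were both above CO. With a variety left out, 5 to 10 were higher in peel (5 without Cutter) and 1 to 3 were lower in pulp. The most abundant gene called higher in pulp, Cs6g18330, a lipid-transfer protein, had 214.7 ± 56.0 FPKM in VO and 23.3 ± 7.68 FPKM in CO (limma adjusted p = 0.0019). That gene alone made up a large part of the VO pulp sum and of its lead over CO. Cs1g02760, matched to ECERIFERUM 1, was lower in VO pulp, at 1.33 ± 0.328 against 7.77 ± 5.25 FPKM (limma adjusted p = 0.035). Seed markers were called higher for 0 genes in either tissue by limma, also at an unadjusted p under 0.05, and lower for 2 of 7 in peel. Whether a cell type with more of these transcripts carries the endochitinase transcripts was not tested.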

How the data were processed

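Total RNA of peel and pulp was sequenced after poly-A selection, in 36 libraries. The authors aligned reads with TopHat2, quantified them with RSEM and used DESeq (version 1.10.1), per the submitters' processing notes, and the genome build and the treatment of reads shared by related genes are not given in the sources used here. The library kit is not stated to keep strand. Values of chitinase genes that resemble each other are therefore uncertain where their reads could be shared. The deposited values are FPKM, per gene and library, with a gene length in bases. FPKM times length gave whole fragments (100% of values within 0.02), from which library sizes of 14.8 to 18.8 M fragments were recovered. One line without a gene name was left out.

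Groups came from the variety names in the sample labels. Genes with a variety mean of at least 0.3 FPKM were kept and analysed as log2(FPKM + 0.1), a scale that understates changes of low genes. Both chitinase genes pass this filter in peel in either group, and in pulp only through their VO levels. Limma (version 3.58.1, R 4.3.3) with a mean-variance trend was used on variety means (VO against CO), on pulp minus peel differences of varieties, and on libraries for pairs of CO varieties, with Benjamini-Hochberg adjustment over all genes kept at an adjusted p under 0.05. A sign-flip permutation test was used for the ratio of the pair. The scripts were tested on simulated data. Alternatives were the pseudocount, the filter, size factors, leaving out replicates or varieties, and a replicate block. The genes and gene lists were chosen with earlier results of these data known. Genes named are the pair, family genes with a variety mean of at least 1 FPKM, the most abundant gene called in each direction and tissue in each other list, the IDs Cs8g01800 to Cs8g01890, and the genes most alike (5 per member over 12 means, 3 over 9 libraries). Marker genes of green tissue, vascular tissue, cuticle and seed named by that rule are given only where a result turns on them. RefSeq (DVS_A1.0) was used for locus names and order, not for coordinates, and no sequence was analysed here. Python 3.11.15 with pandas 2.3.3 was used for tables.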

Additional observations from a re-analysis of the deposited data

Results flagged for a closer look

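The ratio of Cs8g01840 to Cs8g01850 changed in opposite directions from peel to pulp in the variety groups. The log2 ratio was higher in pulp than in peel in all 3 CO varieties, by 2.49 on average, and lower in all 3 VO varieties, with an average of -0.818. This difference between groups was not tested, and the CO pulp values rest on 30 fragments of Cs8g01840 and 38 of Cs8g01850 in 9 libraries.

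In 3 of the 18 other chitinase family genes tested, the VO minus CO difference itself differed between pulp and peel by an interaction test over the variety differences, which called 4.88% of all genes. It was larger in pulp by 0.801 on the log2 scale for Cs5g24680 (limma adjusted p = 0.029), by 1.72 for Cs7g18230 (limma adjusted p = 0.035) and by 1.83 for Cs5g21890 (limma adjusted p = 0.020). Cs5g21890 and Cs7g18230 are low genes, with CO pulp means of 0.0244 and 0.277 FPKM. With 3 libraries per variety and tissue, single libraries were not screened for outlying values.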

How the results depend on the processing

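The tissue differences over all 6 varieties kept their direction and call for both genes under every alternative run, with limma adjusted p-values of at most 0.0060 for Cs8g01840 and 0.0026 for Cs8g01850. Within CO, the difference of Cs8g01840 was -0.32 with a pseudocount of 1 and ranged from -1.40 to -0.87 when replicates or varieties were left out. Within VO, that of Cs8g01850 was -1.13 with median-of-ratios size factors and ranged from -2.02 to -0.95. Jincheng minus Taoye in peel for Cs8g01840 lost its call with a pseudocount of 1 (0.24), without the filter (0.70, limma adjusted p = 0.068), with median-of-ratios size factors (0.66) and with the replicate block (0.70, limma adjusted p = 0.065), and ranged from 0.086 to 1.02 when libraries were left out. The single libraries left out in that pair were chosen after seeing the data. Taoye minus Xianfeng, called under no setting, turned to 0.011 for Cs8g01840 in peel with a pseudocount of 1. Leaving out replicates moved it from -0.45 to 0.43. The CO pairs in pulp rest on few fragments and nothing is read from them, and leaving out replicates moved Jincheng minus Xianfeng of Cs8g01840 in pulp from -0.43 to 0.28 and Taoye minus Xianfeng of Cs8g01850 in pulp from -0.51 to 0.38.

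With a pseudocount of 1, the VO minus CO difference became 3.51 in peel and 2.01 in pulp for Cs8g01840 and 3.87 in pulp for Cs8g01850, because 1 FPKM exceeds the CO levels there. The numbers of genes called between VO and CO, 3740 in peel and 3358 in pulp, ranged from 1527 to 3382 and from 1320 to 3426 when replicates or varieties were left out. With the replicate number as a block they were 9053 and 8882, since libraries in place of varieties then counted as replicates. Same-numbered libraries did not deviate together, with correlations of at most 0.0784 over 45 pairs of libraries in each tissue and 18 between the tissues, so the numbers were not taken to pair the samples. The genes called between Jincheng and Xianfeng in peel, 2571, were 1246 to 1788 with a replicate left out. Depth limits the CO pulp values of the pair, which rest on 1 to 7 fragments per library.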
